A study of Mus musculus with 2 samples.

Results

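The 49 genes described here encode the machinery that copies DNA before a cell divides: the proteins that mark and license origins, the replicative helicase and its activators, the polymerases, the sliding clamp and its loader, the single-strand binding complex, the enzymes that join Okazaki fragments, and the enzymes that supply nucleotides. They were chosen by name from that function, and GENCODE release M21 (mouse genome mm10, GRCm38), which has 21670 protein-coding genes on the autosomes and the X chromosome, lists all 49. For each gene, a promoter peak was a peak of the larger deposited list within 500 bp of any start of a protein-coding transcript, and the strongest of these gave the gene its value. A gene is called open in a library where it had such a peak.

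The data are DNase-seq, in which the enzyme DNase I cuts open chromatin. Regions with many cuts are called as peaks, and short protected gaps within them, where bound protein can shield DNA, are called as footprints. There were 2 libraries, both of cerebellum. The mice were B6CASTF1/J males, untreated as far as the labels say, at an age of 4 days, and each label names 3 males. They form 1 group, P4 cerebellum, numbered biological replicates 1 and 2, so no conditions were compared. B6CASTF1/J animals are first-generation hybrids that carry one C57BL/6J and one CAST chromosome set, and the sequences below are those of the C57BL/6J reference assembly.

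Replication starts from origins bound by the origin recognition complex, which with Cdc6 and Cdt1 loads the MCM helicase before S phase. The kinase Cdc7 with Dbf4, and the recruitment of Cdc45 and the GINS complex, then turn the loaded helicase on, and polymerases alpha, delta and epsilon copy the strands. Many of these genes are classical targets of E2F transcription factors, which rise and fall with the cell cycle, and in the newborn cerebellum the most abundant dividing cells are the progenitors of granule neurons.

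The libraries differed in the number of called sites and in part of their content. Replicate 1 had 61744 peaks and 112201 footprints, replicate 2 131460 peaks and 261231 footprints. Peak values are the authors' signal, normalised for depth by a factor not given in the sources used here, and the depth in reads is unknown. Over the 12774 genes open in both libraries, the median log2 difference in value (replicate 2 minus replicate 1) was 1.02, and 92.6% were higher in replicate 2. Promoters of 6 of 8 granule lineage markers and 5 of 6 Purkinje cell markers were open in both libraries, with Barhl1 and Pcp2 open in neither. The granule lineage marker Pax6 was open in replicate 2 alone, at 3.66, and so adds to the granule lineage sum given below in that library only. Of 4 hindbrain and cerebellar region genes (En1, En2, Meis1 and Meis2), 4 were open in replicate 2 and 3 in replicate 1. Of all genes, 65.0% were open in replicate 2 and 59.9% in replicate 1. All 11 forebrain markers had a promoter peak in replicate 2, among them Emx1, against 4 in replicate 1. Their summed values were 21.8 in replicate 2 and 4.06 in replicate 1. Sums were 6.74 and 4.17 for the hindbrain and cerebellar region genes, and 12.8 and 7.80 for the granule lineage markers. Their median log2 differences, 0.42 and 0.07, were below the 1.02 of all genes, and Zic1, Zic2, Atoh1 and En2 were lower in replicate 2. The forebrain markers thus go against the cerebellum label of replicate 2. The 4 hindbrain and cerebellar region genes were all open in replicate 2, but so were the forebrain markers and 65.0% of all genes. Being open therefore does not tell the regions apart. The median log2 difference of the region genes was below that of genes in general. En2 was lower in replicate 2 (1.06, against 1.46), Meis1 and Meis2 were higher, and En1 had a peak there alone (0.718). Of 5 astrocyte and Bergmann glia markers, 5 were open in replicate 2 and 2 in replicate 1. Liver, skeletal muscle, microglia and red blood cell markers, 3 of each, had no promoter peak in either library. Markers of dividing cells (Mki67, Top2a, Ccnb1 and Cdk1) were open in both. Every result is therefore given for each library, and the part that other brain tissue has in the differences between them was not tested.

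Every one of the 49 replication genes was open in both libraries, where 58.9% of all protein-coding genes were. With the stricter deposited list all 49 were again open in both, where 52.3% of all genes were. The values ran from 1.23 to 6.62 with a median of 2.86 in replicate 1 and from 2.02 to 14.4 with a median of 6.05 in replicate 2. Over all genes open in both libraries the medians were 2.14 and 4.46, and 32 of the 49 lay above these medians in both libraries while 9 lay below in both. In bulk tissue, fewer cells with an open site and a less open site in each cell cannot be told apart.

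Ranked among all 21670 genes of the same library, the replication promoters stood at a median percentile of 80.7 in replicate 1 and 79.0 in replicate 2, and the lowest stood at 55.5 and 54.3. In replicate 1, 9 of the 49 lay above percentile 90, and in replicate 2, 12 did. They were spread over the upper part of the range. CpG-rich promoters are open in many tissues, and 27 of the 49 promoters (55.1%) were in the 3 highest of 10 equal classes of CpG count, which hold 30% of all genes and 47.3% of genes open in both libraries. Within these 3 classes the replication genes had median percentiles of 81.4 and 79.0, against 75.6 and 73.8 for all genes of the classes, of which 93.0% were open in both libraries. No replication gene was in the lowest 3 classes.

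**Figure D1:**
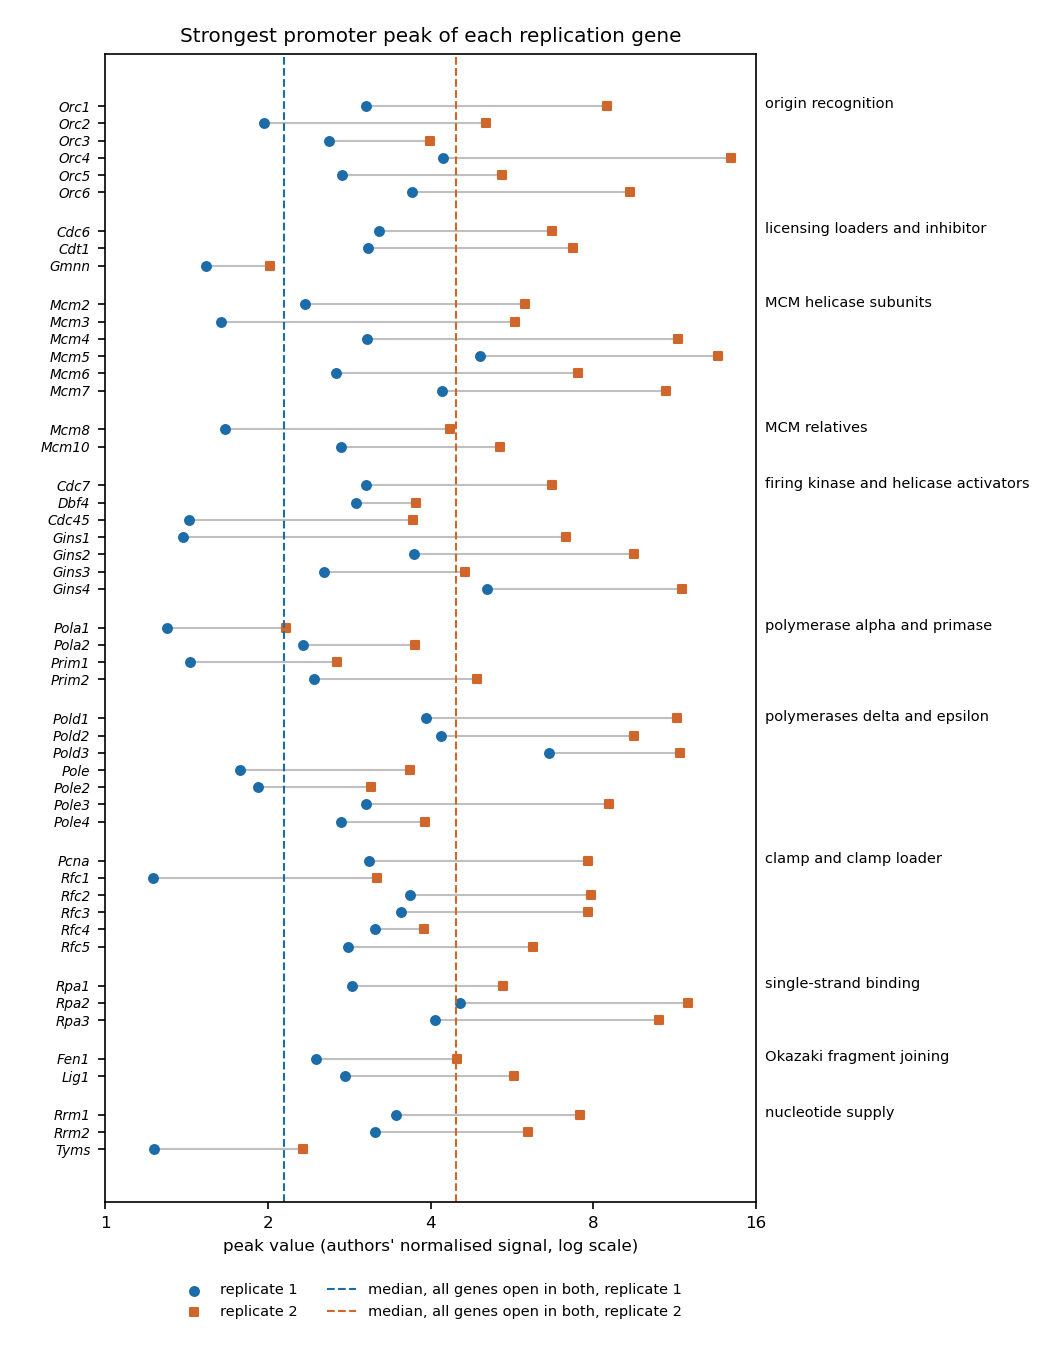
Value of the strongest promoter peak (authors' normalised signal, log scale) of each of the 49 replication genes, grouped by role, with replicate 1 as circles and replicate 2 as squares, 1 library each. Dashed lines are the medians of all genes open in both libraries (2.14 and 4.46), and all 49 squares lie to the right of their circles.

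The 6 origin recognition genes, whose products bind origins and start the loading of the helicase, ran from 1.97 to 4.21 in replicate 1 and from 4.00 to 14.4 in replicate 2. Orc4 (chromosome 2, 48902824 to 48950277, minus strand) was the highest, with 4.21 in replicate 1 and 14.4 in replicate 2, where no other replication gene reached its value. This rests on the set of annotated coding starts, since with the 5′-most start alone it had 0.722 and 0.246. Its peak lies between Orc4 and the head-to-head gene Mbd5, whose start is 232 bp away. Orc2 (chromosome 1, 58462771 to 58505109) was the lowest by percentile at 1.97 and 5.06, and Orc1 (chromosome 4, 108579423 to 108614833), the subunit whose level changes through the cell cycle, had 3.04 and 8.47. Of the licensing factors, Cdt1 (chromosome 8, 122568015 to 122573554), which brings the helicase to the origin, had 3.06 and 7.34, and the loading ATPase gene Cdc6 had 3.21 and 6.72. Gmnn (chromosome 13, 24751845 to 24761923), which encodes geminin, the inhibitor of Cdt1, was far lower at 1.54 and 2.02, the lowest value of all members in replicate 2.

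The 6 genes of the MCM helicase ring had medians of 2.86 in replicate 1 and 9.20 in replicate 2. Mcm5 (chromosome 8, 75109569 to 75128439, plus strand) led with 4.95 and 13.6, and Mcm7 followed with 4.19 and 10.9. Mcm3 (chromosome 1, 20802968 to 20820312) was the lowest at 1.64 and 5.74. If 1 step of the deposited values is 1 counted cut, the exact 95% Poisson intervals in replicate 1 are 4.60 to 5.31 for Mcm5 and 1.44 to 1.85 for Mcm3, so subunits of the same ring differed in promoter value beyond counting error, which is all these intervals cover. Of the MCM relatives, Mcm10 (chromosome 2, 4989714 to 5012791), a helicase activator, had 2.74 and 5.38, and Mcm8 (chromosome 2, 132816141 to 132844197), which acts in recombination repair, had 1.66 and 4.34.

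The firing kinase genes differed little in replicate 1 and more in replicate 2. Cdc7, the catalytic subunit, had 3.04 and 6.70, and Dbf4, its activator, had 2.92 and 3.77. Of the helicase activators, Gins4 (chromosome 8, 23226616 to 23237659) was the highest with 5.09 and 11.7, Gins2 had 3.73 and 9.53, and Gins3 had 2.54 and 4.64. Cdc45 (chromosome 16, 18780447 to 18811987) was the lowest by percentile at 1.43 and 3.71. Gins1 (chromosome 2, 150905400 to 150931280) differed most between the libraries, at 1.39 in replicate 1 against 7.14 in replicate 2. Its strongest peak was centred 167 bp downstream of the start in replicate 1 and 43 bp upstream of it in replicate 2.

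Polymerase alpha and primase, which lay down the primers, had the lowest median percentile of the 11 role groups, at 64.4 over both libraries. Prim2 (chromosome 1, 33453810 to 33669795), the large primase subunit gene, was the highest at 2.44 and 4.88, Pola2 had 2.33 and 3.75, and Prim1, the catalytic primase subunit, had 1.44 and 2.69. Pola1 (chromosome X, 93304767 to 93632155), the catalytic polymerase subunit, had 1.30 and 2.16. It is the only X-linked member, and in males its lower copy number and lower accessibility cannot be told apart. The genes of polymerases delta and epsilon, which extend the lagging and leading strands, ran from 1.77 to 6.62 in replicate 1 and from 3.11 to 11.6 in replicate 2. Pold3 (chromosome 7, 100082111 to 100121565, minus strand), an accessory subunit of polymerase delta, had 6.62 and 11.6 and the highest mean percentile of all 49 genes, 97.7. Its replicate 1 value, with a Poisson interval of 6.22 to 7.04, stood above that of the next gene, Gins4, with 4.74 to 5.46. Pold1 and Pold2 had 3.93 and 11.4, and 4.18 and 9.53. The catalytic subunit gene of polymerase epsilon, Pole (chromosome 5, 110286306 to 110337474), had 1.77 and 3.67, Pole2 (chromosome 12, 69201773 to 69228195) was the lowest at 1.92 and 3.11 by percentile, and the histone-fold subunit genes Pole3 and Pole4 had 3.04 and 8.56, and 2.74 and 3.90. In both libraries, each of these polymerases had an accessory subunit gene with a higher value than its catalytic one. For polymerase delta in replicate 2 the Poisson intervals overlapped (Pold3 11.57, Pold1 11.45). At polymerases delta and epsilon this sets the highest of several accessory genes against 1 catalytic gene, which favours the accessory side by number.

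Pcna, the sliding clamp, had 3.08 in replicate 1 and 7.84 in replicate 2, above the medians of the 49 in both. Of its loader genes, Rfc2 (chromosome 5, 134581366 to 134601805) was the highest at 3.66 and 7.93, Rfc3 and Rfc5 had 3.53 and 7.84, and 2.82 and 6.18, and Rfc4 had 3.16 and 3.88. Rfc1 (chromosome 5, 65261850 to 65335670), the large subunit, had 1.23 and 3.18, the lowest replicate 1 value of the set, with a Poisson interval of 1.06 to 1.41. The single-strand binding complex had the highest median percentile of the role groups, 93.2: Rpa2 (chromosome 4, 132768332 to 132778752) had 4.53 and 11.98, Rpa3 had 4.08 and 10.6, and Rpa1 (chromosome 11, 75298166 to 75348324) 2.86 and 5.45. The flap nuclease gene Fen1 (chromosome 19, 10199132 to 10204169) had 2.45 and 4.47, and the ligase gene Lig1 (chromosome 7, 13277283 to 13311433) 2.77 and 5.70. With the 5′-most coding start alone, Lig1 had no peak in replicate 1 and 0.239 in replicate 2. Of the nucleotide supply genes, the ribonucleotide reductase subunits Rrm1 (chromosome 7, 102441695 to 102469771) and Rrm2 had 3.46 and 7.58, and 3.15 and 6.05, while thymidylate synthase, Tyms (chromosome 5, 30058202 to 30073617), had 1.23 and 2.33. With 1 value in each library, the order of neighbours whose Poisson intervals overlap was not resolved. Intervals that do not overlap cover counting error alone and do not settle an order across libraries. Gins1, for example, was below Dbf4 in replicate 1 (1.39 and 2.92) and above it in replicate 2 (7.14 and 3.77).

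All 49 genes had the higher value in replicate 2, and their log2 differences had a median of 1.14 and an SD across genes of 0.40. Over all genes open in both libraries the median was 1.02 with an SD of 0.60, so 31 of the 49 lay above the general shift and 18 below it, and 40 lay within 0.5 of it. The largest differences were those of Gins1 (2.36), Mcm4 (3.05 and 11.5, 1.91), Mcm3 (1.81), Orc4 (1.77) and Pold1 (1.54). The smallest were those of Rfc4 (0.30), Dbf4 (0.37), Gmnn (0.40), Pole4 (0.51) and Orc3 (2.59 and 4.00, 0.62). The Pole4 difference compares separate peaks. Its strongest peak was centred at 279 bp from the nearest coding start in replicate 1 and at -22 bp in replicate 2. At Gins1 and Cdc45, too, the strongest peaks of the libraries were separate peaks. The differences of these genes therefore do not describe a change at the same site. The libraries ranked the replication genes similarly, with Spearman's rho of 0.86 across the 49 genes. This is a description across genes, which share each library's depth and are not independent replicates.

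**Figure D2:**
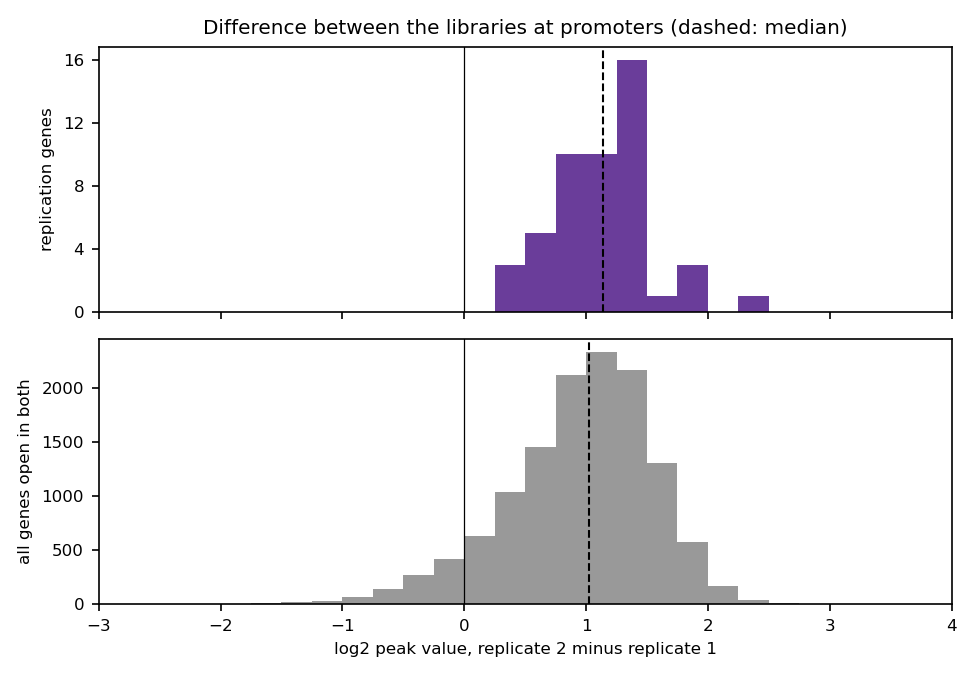
Histograms of the log2 difference in promoter peak value, replicate 2 minus replicate 1, for the 49 replication genes (top) and the 12774 genes open in both libraries (bottom), in bins of 0.25, with the medians dashed at 1.14 and 1.02. The replication genes lie between 0.30 and 2.36, within the range of all genes.

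The strongest peak was centred within 200 bp of a coding start at 47 of 49 genes in replicate 1 (95.9%) and at 48 in replicate 2 (98.0%), against 84.3% and 83.9% of all genes with a peak. It was centred upstream of the start at 34 and 38 genes (69.4% and 77.6%), against 67.2% and 72.7% of all genes with a peak. A second promoter peak was present at 18 genes in replicate 1 (36.7%) and 21 in replicate 2 (42.9%), against 28.4% and 37.8% of all genes and 47.8% and 61.0% of the genes open in both libraries. Bases with a cut rate past the authors' false discovery rate of 0.001 made up a median of 35.6% and 57.7% of the replication genes' promoter windows, against 25.7% and 46.6% for genes open in both.

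Divergent promoters were frequent. Another coding gene started head to head within 1000 bp at 14 of the 49 (28.6%), where 9.95% of all genes and 15.8% of genes open in both libraries had such a neighbour. The closest were Orc3 with Rars2 at 13 bp, Fen1 with Tmem258 at 71 bp, Mcm8 with Trmt6 at 87 bp and Lig1 with Zswim9 at 105 bp. Rpa1 with Smyd4 (109 bp), Rpa3 with Umad1 (115 bp), Orc1 with Prpf38a (118 bp), Pole with Pxmp2 (120 bp) and Dbf4 with Slc25a40 (134 bp) followed. Farther apart were Mcm7 with Ap4m1 (184 bp), Cdc45 with Ufd1 (206 bp), Orc4 with Mbd5 (232 bp), Pole3 with 4933430I17Rik (301 bp) and Mcm4 with Prkdc (489 bp), the catalytic subunit of a DNA repair kinase. With Orc6, which shares its site with Vps35, the strongest peak of 15 replication genes lay within 500 bp of another gene's start in at least 1 library. At these sites the accessibility that belongs to either gene cannot be told apart.

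Promoter sequences were searched for short words bound by known factors, first for that of E2F. In the 300 bases from 250 before to 50 after the principal coding start, 16 of 49 genes (32.7%) held TTTCCCGC, TTTGGCGC, TTTCGCGC or TTTGCCGC on either strand. Of all promoters 2.91% did, of those open in both libraries 4.28%, and of those in the 3 highest CpG classes 5.46%. They were Orc1, Orc3, Cdc6, Cdt1, Gmnn, Mcm3, Mcm4, Mcm5, Mcm6, Mcm8, Gins1, Pola1, Pole, Pole2, Pole4 and Rfc3: all 3 licensing genes, 4 of the 6 MCM ring genes, and none of the single-strand binding, Okazaki fragment or nucleotide supply genes. The word was not found in these 300 bases of Pcna, Rrm1, Rrm2 or Tyms, which says only that these letters are not in this window. A word match is a description of the sequence and does not show that a factor was bound.

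Within 500 bp of any start, 26 genes held an E2F word, and at 15 of them a word lay wholly under a footprint, extended by 5 bp on each side, in at least 1 library. The count was 5 genes in replicate 1, 14 in replicate 2 and 3 with the same word under a footprint in both. Of all genes 0.489% had one in both, and of genes open in both libraries 0.830%. The 3 were Orc1, Mcm5 and Pole, 11.5% of the replication genes with a word against 5.25% of all genes with a word. This count moved with the rule: it was 1 gene when footprints were not extended and 6 when they were extended by 10 bp. The stretches of these 3 genes, shown because the word and the footprint coincide in both libraries, are printed 5′ to 3′ on the strand of the gene with the words in capitals and 10 bases on either side.
Orc1: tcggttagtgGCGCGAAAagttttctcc
Mcm5: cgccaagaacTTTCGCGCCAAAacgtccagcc
Pole: cgtggagagcGCGCCAAAttctccccgg
The Orc1 stretch is at chr4:108579417-108579444 on the plus strand, with the word beginning 27 bp upstream of the nearest coding start. There the replicate 1 footprint of 8 bp covered exactly the 8 letters, and the replicate 2 footprint was 15 bp wide. The Mcm5 stretch, at chr8:75109346-75109377 on the plus strand and 213 bp upstream of its nearest coding start, holds 2 overlapping words on opposite strands, under footprints of 9 and 29 bp. The Pole stretch, at chr5:110286333-110286360 on the plus strand, holds a word that begins 2 bp past the nearest coding start, under footprints of 11 bp in both libraries.

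At 12 other genes a word lay under a footprint in 1 library alone or, for Mcm3, under different words in each. They are shown in the same way because they are the remaining matches under footprints, from the larger family of which the 3 above are part.
Cdt1: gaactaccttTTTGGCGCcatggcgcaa
Gmnn: tgaggtcggtTTTGGCGCgctctggtgt
Mcm3, first word: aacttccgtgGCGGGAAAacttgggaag
Mcm3, second word: cttgggaagtTTTGGCGCcaaggcggtg
Mcm4: cggccccgggTTTCCCGCcaaaacgcaa
Mcm6: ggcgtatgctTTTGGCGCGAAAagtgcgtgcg
Mcm7: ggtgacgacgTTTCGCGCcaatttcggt
Gins1: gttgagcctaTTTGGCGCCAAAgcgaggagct
Gins2: ccgcgcggtgGCGGGAAAgaagtgcctg
Pold3: agcgaagctgTTTCCCGCcggcgggagc
Pole4: tctacccggcGCGGGAAAggggccgaaa
Rpa2: tagcagtttgGCGGGAAAagggggctag
Rrm2: ttgactcttcTTTCCCGCcaaagtgtct
The positions are chr8:122568037-122568064 (plus strand) for Cdt1, chr13:24761563-24761590 (minus) for Gmnn, chr1:20820276-20820303 and chr1:20820257-20820284 (minus) for the first and second words of Mcm3, and chr16:15637607-15637634 (minus) for Mcm4. They are chr1:128359794-128359825 (minus) for Mcm6, chr5:138171850-138171877 (minus) for Mcm7, chr2:150909575-150909606 (plus) for Gins1, chr8:120589075-120589102 (minus) for Gins2 and chr7:100121468-100121495 (minus) for Pold3. Those of Pole4, Rpa2 and Rrm2 are chr6:82652891-82652918 (minus), chr4:132768012-132768039 (plus) and chr12:24708732-24708759 (plus). Pold3 and the second word of Mcm3 were under a replicate 1 footprint, and all the others under a replicate 2 footprint. At Mcm6 and Gins1 the stretch, like that of Mcm5, holds overlapping words that read as E2F words from both strands.

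**Figure D3:**
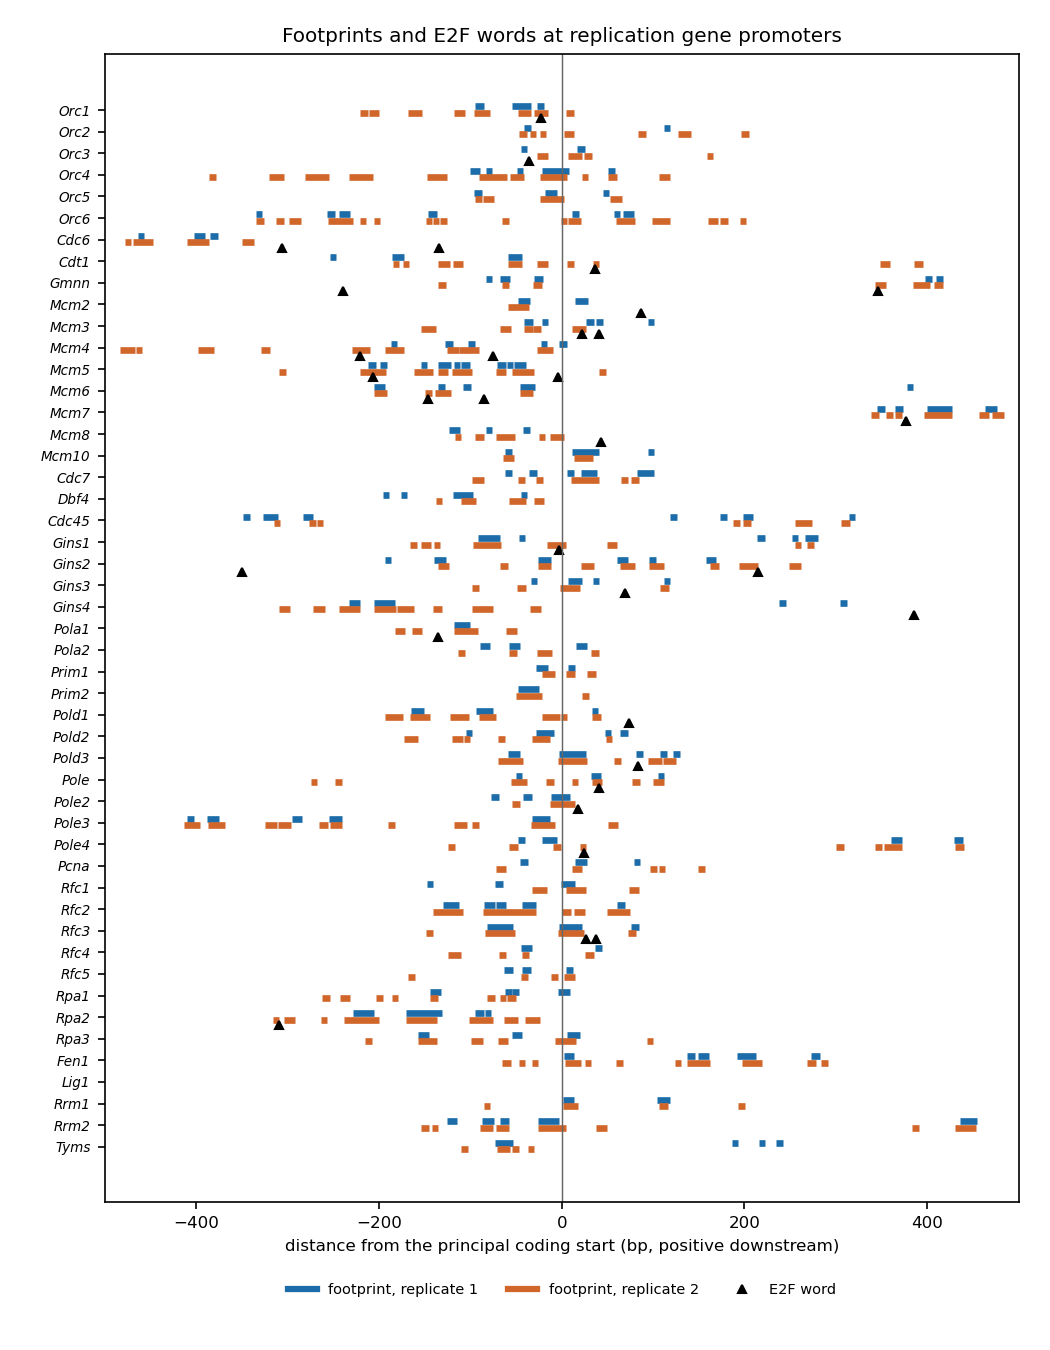
Footprints of replicate 1 (upper bars) and replicate 2 (lower bars) and E2F words (triangles) by distance in bp from the principal coding start of each replication gene, within 500 bp. A triangle stands at a bar of each replicate at Orc1, Mcm5 and Pole. Lig1 shows no bar because its footprints lie around other coding starts.

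Other words of proliferation and housekeeping promoters were counted in the same 300 bases on both strands. The ETS word CCGGAAG was in 22 of 49 (44.9%), against 11.3% of all promoters, 17.0% of those open in both and 19.2% in the 3 highest CpG classes. The NF-Y word CCAAT was in 28 (57.1%), against 38.4% of all promoters, 38.2% of those open in both libraries and 33.5% in the 3 highest CpG classes. The Sp/KLF word GGGCGG was in 35 (71.4%), against 45.7% of all, 65.0% of those open in both and 83.5% in the 3 highest CpG classes. The NRF1 word GCGCATGC was in 6 (all genes 3.45%) and the Myc E-box CACGTG in 9 (7.82%). In 4 of 49 (8.16%) the CHR word TTTGAA of late cell cycle genes was found, against 15.4% of all promoters. Among promoters open in both libraries 11.04% held it, and among those in the 3 highest CpG classes 6.20%. Counts were low for the CREB word TGACGTCA, 2 (4.08%, all genes 2.53%), and the YY1 word AAGATGGCG, 1 (2.04%, all genes 1.84%). None held the GLI word TGGGTGGTC, which 0.217% of all promoters hold. Of the 16 genes with an E2F word, 11 also had the NF-Y word and 8 the ETS word, and Orc1, Gmnn, Mcm4, Mcm8, Pola1 and Rfc3 had all 3 (12.2%, against 0.217% of all genes). Cdc7, Dbf4, Pola2, Pold1, Pole3, Pcna, Rfc2 and Lig1 had none of the 3 in these 300 bases. Of these, Pold1 and Lig1 hold an E2F word within 500 bp of a coding start, and the footprints of Lig1 lie around other coding starts.

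**Figure D4:**
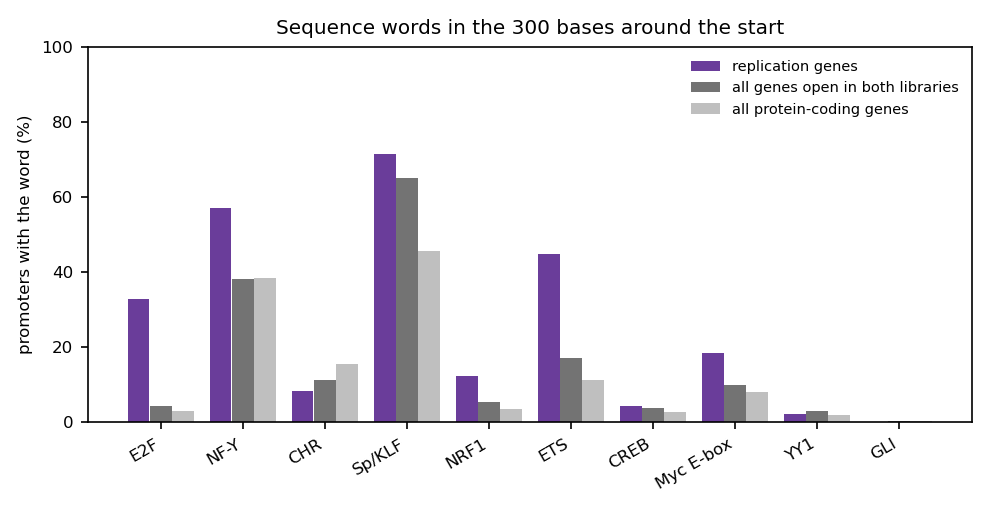
Share of promoters (%) that hold each sequence word in the 300 bases around the principal coding start, for the 49 replication genes, all genes open in both libraries and all 21670 protein-coding genes. The E2F bars stand at 32.7%, 4.28% and 2.91%, and the ETS bars at 44.9%, 17.0% and 11.3%.

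Values of promoters with and without the E2F word are set side by side. Median values of the 16 with it were 2.64 in replicate 1 and 6.23 in replicate 2, and those of the 33 without it 3.04 and 6.05. The median log2 differences between the libraries were 1.21 and 1.13. The 28 with CCAAT had a median log2 difference of 1.34 and the 21 without it 1.04. The 22 with CCGGAAG had 0.98 and the 27 without it 1.26. None of these differences was tested. Words were scored around the principal start alone, while a value is that of the strongest peak at any coding start. Word and value can therefore refer to different starts. Mcm7, Pold3 and Rrm2, counted among the 33 without the E2F word, hold one upstream of another coding start.

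All 49 genes had a promoter footprint in both libraries, where 56.5% of all genes did. Over all genes, 12242 had a footprint in both and 12774 a promoter peak in both, so this largely repeats that the 49 were open. The replication genes held 196 footprints in replicate 1 and 310 in replicate 2, with medians of 4 and 6 per gene, the same medians as genes open in both libraries. Of the 196, 141 (71.9%) overlapped a replicate 2 footprint, against 62.1% at the promoters of all genes. Replicate 2 had more footprints at 35 genes, fewer at 5 and as many at 9. Mcm7, with 7 annotated coding starts and so a wider window, had 10 and 14, Orc6 had 7 and 17, and Mcm5 9 and 8. Orc4, Pole3, Fen1 and Rrm2 each had 5 in replicate 1 and 11 in replicate 2. At the low end, Pola1 had 1 and 4, Prim2 1 and 2, and Mcm2 2 and 1.

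Words other than E2F lay under a footprint in both libraries as follows. Each share is set against that of all genes and then that of genes open in both libraries. The Sp/KLF word did at 27 of 49 genes (55.1%, against 21.6% and 36.6%). The NF-Y word did at 8 (16.3%, against 5.68% and 9.64%) and the ETS word at 6 (12.2%, against 2.47% and 4.20%). The 8 with CCAAT were Orc6, Mcm3, Mcm5, Mcm7, Mcm10, Cdc45, Gins2 and Rpa2, and the 6 with CCGGAAG were Mcm4, Pold3, Rfc3, Rfc4, Rpa2 and Rpa3. The E-box did at Orc4, Mcm8, Gins4 and Tyms (8.16%, against 1.16% and 1.97%). The NRF1 word did at Cdc7, Pold2 and Rpa2 (6.12%, against 2.5% and 4.24%), and the CREB word at Mcm5 (2.04%, against 1.55% and 2.63%). The CHR, YY1 and GLI words were under a footprint in both libraries at no replication gene, where 0.378%, 0.415% and 0.00923% of all genes had one.

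The 4 genes of highest mean percentile, Pold3, Mcm5, Gins4 and Orc4, are shown with their 300 bases in the direction of transcription, the start falling after base 250. Capitals mark bases under a footprint in both libraries, so that the protected stretches can be read against the words.
Pold3: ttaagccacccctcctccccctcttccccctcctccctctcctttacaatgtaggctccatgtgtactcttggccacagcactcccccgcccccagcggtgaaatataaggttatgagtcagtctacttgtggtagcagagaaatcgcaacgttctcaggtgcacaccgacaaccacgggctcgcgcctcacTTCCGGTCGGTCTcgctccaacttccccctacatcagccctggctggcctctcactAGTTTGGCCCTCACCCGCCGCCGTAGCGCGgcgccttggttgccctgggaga
Mcm5: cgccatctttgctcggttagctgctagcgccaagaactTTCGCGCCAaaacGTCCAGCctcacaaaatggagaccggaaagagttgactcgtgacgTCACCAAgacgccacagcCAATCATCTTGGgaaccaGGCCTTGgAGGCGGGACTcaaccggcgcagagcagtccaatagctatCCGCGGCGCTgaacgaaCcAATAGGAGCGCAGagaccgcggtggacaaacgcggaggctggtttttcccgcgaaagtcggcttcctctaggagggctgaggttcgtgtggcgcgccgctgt
Gins4: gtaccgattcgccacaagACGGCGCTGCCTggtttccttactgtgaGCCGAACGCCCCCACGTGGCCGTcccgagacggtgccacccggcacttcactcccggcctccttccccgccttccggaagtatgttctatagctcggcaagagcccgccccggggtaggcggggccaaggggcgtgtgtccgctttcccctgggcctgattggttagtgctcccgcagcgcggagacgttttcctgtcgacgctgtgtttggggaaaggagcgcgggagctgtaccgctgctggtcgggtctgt
Orc4: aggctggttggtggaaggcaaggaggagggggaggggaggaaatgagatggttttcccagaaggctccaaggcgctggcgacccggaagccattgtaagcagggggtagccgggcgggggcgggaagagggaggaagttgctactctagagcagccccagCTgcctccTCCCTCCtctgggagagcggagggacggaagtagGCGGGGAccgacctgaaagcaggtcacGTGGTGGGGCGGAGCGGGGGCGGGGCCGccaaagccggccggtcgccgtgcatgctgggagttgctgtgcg
They lie at chr7:100121516-100121815 (minus strand), chr8:75109319-75109618 (plus), chr8:23237610-23237909 (minus) and chr2:48949227-48949526 (minus). Of the 300 bases, 43, 76, 35 and 44 were under a footprint in both libraries. At Mcm5 the first protected stretch covers most of the 2 overlapping E2F words. A further E2F word, which begins 8 bp upstream of the start, was under no footprint in either library. Other protected stretches cover only part of the CREB word and of some of the CCAAT words. At Gins4 the longer stretch holds CACGTG, at Orc4 the longest holds GGGCGG, and at Pold3 the first covers most of an ETS word.

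Distal sites were about as frequent around the replication genes as around all genes. A shared distal peak overlapped between the libraries and lay over 1000 bp from any coding start, and peaks were counted in the gene and 50000 bp on either side. The replication genes had a median of 1, against 2 for all genes, and 15 of 49 (30.6%) had none, against 28.1% of all genes. Per 100 kb of locus they had 1.53, against 1.45 for all genes. Counted in each library alone, the medians were 2 and 5, as over all genes. In all there were 100 shared distal peaks in the 49 loci, none of them in more than 1 locus, and their median value was 1.20 in replicate 1 and 1.77 in replicate 2. A replication gene had the nearest coding start for 30 of the 100, and 7 lay inside a replication gene: 2 in Cdc6 and 1 each in Mcm2, Pola2, Prim2, Pole4 and Rpa2. None of the 100 held the GLI word, where 0.195% of all 24085 shared distal peaks did, and 1 held an E2F word (1.18% of all), in the locus of Rrm1.

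Pold1 had 17 shared distal peaks, Cdc6 10, Gins2 8 and Rrm2 7, and Mcm5, Pola2, Pold2, Pole, Rpa2 and Fen1 had 4 each. Most of these lay nearer to other genes. Of the 17 around Pold1, 10 were nearest to Emc10, between 44484662 and 44492280 on chromosome 7, at a median of 0.416 in replicate 1 and 0.389 in replicate 2. Of the 10 around Cdc6, 7 were nearest to Rara. Gins2 was itself the nearest gene for 5 of its 8, with median values of 1.68 and 1.71, and Rrm2 for 5 of its 7. The strongest near Rrm2, at chr12:24697181-24697360 and 10970 bp from its start, had 2.61 in replicate 1 and 4.82 in replicate 2. The site inside Pole4 at chr6:82702821-82703000 had 2.89 and 3.60.

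**Figure D5:**
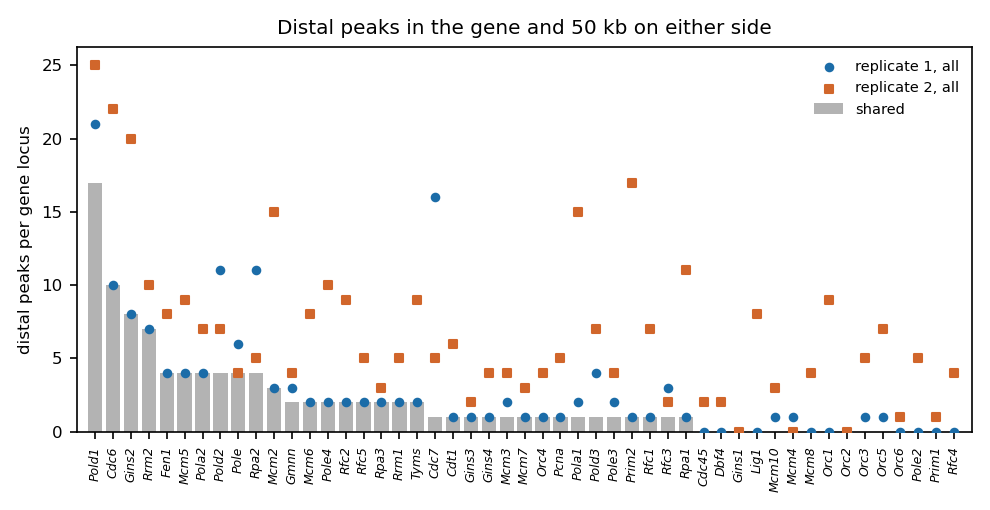
Distal peaks in each replication gene and 50 kb on either side, as the count shared by the libraries (bars) and all those of replicate 1 (circles) and replicate 2 (squares), 1 library each, genes ordered by the shared count. Pold1 stands highest with 17 shared, and the circle of Cdc7, at 16, lies far above its bar of 1.

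Cdc7 was the member whose distal peaks differed most in favour of replicate 1, with 16 in replicate 1 and 5 in replicate 2, of which 1 was shared. The 15 found in replicate 1 alone lay between 107019832 and 107032182 on chromosome 5 and were weak, with values from 0.0968 to 0.226. Pold2 and Rpa2 each had 7 peaks in replicate 1 alone, with medians of 0.187 and 0.168, while Prim2, with 17 in replicate 2 against 1 in replicate 1, and Pola1, with 15 and 2, went the other way.

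A wider list of 37 other genes of the replication pathway gave similar counts. All 37 were open in both libraries, with median values of 2.94 and 5.46, median percentiles of 81.5 and 76.0 and a median log2 difference of 0.93. The highest by percentile were Top1, the topoisomerase that relieves torsion ahead of the fork, at 5.64 and 10.4, and Recql4, a helicase needed for firing, at 6.02 and 9.50. The lowest were Tk1, the thymidine kinase of nucleotide salvage, at 0.813 and 1.20, and Pclaf, a PCNA-binding factor, at 0.839 and 1.30, both below every one of the 49. Asf1b, a histone chaperone, had 3.35 and 15.0, and Mtbp, a partner of the firing factor Treslin, was higher in replicate 1 (2.41) than in replicate 2 (2.04). An E2F word was in 8 of the 37 promoters, against 2.91% of all promoters and 4.28% of those open in both libraries. Mtbp and Atad5, which unloads PCNA, had one under a footprint in both libraries. So did 0.489% of all genes and 0.830% of genes open in both.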

How the data were processed

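DNase-seq was measured in 2 libraries of P4 cerebellum, grouped by the labels. The deposited peak lists, 2 per library, give the authors' depth-normalised signal per peak on mm10, called per library, per the description files deposited with them; for the aligner and the peak caller, no name or version is given in the sources used here. The deposited footprint files give positions and a column fixed at 0.01, which went unused. The FDR files hold the authors' q-value (false discovery rate) of the cut rate per short interval. Deposited signal values came in whole steps of 0.00645 and 0.00665 (99.998% and 100% of peaks within 0.05 of a step), and 96.7% and 98.2% of stricter peaks carried the same value as the larger list's peak over them. The median peak rests on 123 and 94 steps. The description files were read and not used in any calculation.

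Genes came from GENCODE M21 and sequence from the GRCm38.p6 assembly, with Python 3.11.15, numpy 2.4.6, scipy 1.17.1 and pysam 0.24.0. For 41 members the RefSeq table of promoters on this assembly held 51 entries, all identical in the genome. A percentile ranks a promoter value among all 21670 genes, with 0 for no peak. A shared peak overlaps by at least 1 bp, and CpG classes are 10 equal groups of genes by CpG count in the 300 promoter bases. The principal start is that of the APPRIS principal coding transcript, the 5′-most where several are marked, and was the 5′-most coding start at 44 of 49 members.

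With 1 group of 2 libraries no test was made, no p-value is given, and members are set beside all genes. The members, lists and words were chosen with earlier results of these data known. Full values were given for the highest and lowest member of each role by mean percentile, the 5 highest and 5 lowest differences between libraries, the 5 (with ties) with the most shared distal peaks and footprints, and those with an E2F word under a footprint in both libraries. Other genes, and the words under a footprint in 1 library, were added after their values were seen. The scripts were tested on simulated peaks and sequences. Alternatives to the list, window, start, overlap, flank, words and footprint extension were tried, and each library was left out in turn.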

Additional observations from a re-analysis of the deposited data

How the results depend on the processing

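The 49 of 49 promoter peaks in both libraries held with the stricter list, windows of 200 and 2000 bp, equal numbers of the 61744 strongest peaks, and either library alone. The 49 of 49 footprints held in both windows and in either library alone. With the 5′-most start alone 48 had a peak and 47 a footprint. The median percentile (78.4 over both libraries, SD 1.19 between them) ran from 79.0 to 80.7 with either library left out, and was 79.8 without the 14 head-to-head members, an alternative added after seeing the data. It ranged from 77.3 to 79.3 in the other settings, and the median log2 difference from 1.13 to 1.14, where that of all genes ran from 1.02 to 1.08. Of 146 member mean values recomputed with other windows or starts, 1 moved by over 1.5 times: Orc4, at 0.484 against 9.28 with the 5′-most start alone, where Lig1 had no peak in replicate 1. The median number of shared distal peaks (1) was 0 with a 20000 bp flank and 2 with a 100000 bp flank, where all genes had 1 and 3, and was 2 to 5 with either library left out. The 16 promoters with an E2F word became 25 with 7-letter words, which 12.2% of all promoters hold. The 3 with a word under a footprint in both libraries became 1 without extension, 6 with an extension of 10 bp, 5 with 7-letter words and 6 when part of the word sufficed, and 5 to 14 with either library left out. Wider flanks, shorter words and longer footprints count more sequence by construction. The cause of the other changes was not tested. No paired analysis was possible because the 2 libraries belong to 1 group. Unknown depth limits what an absent peak or footprint means.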
